A study of Homo sapiens with 4 samples.

Results

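Cardiolipin is the signature phospholipid of the inner mitochondrial membrane, and 9 genes that make and remodel it were examined here, with PTPMT1 at the centre. PTPMT1 is a phosphatase of the same membrane that removes the phosphate from phosphatidylglycerol phosphate. The genes were found by matching the Ensembl identifiers of the deposited tables to the symbols PTPMT1, CRLS1, TAMM41, PGS1, CDS1, CDS2, TAFAZZIN, LCLAT1 and PRELID1, and each symbol matched 1 of the 60658 identifiers. PTPMT1 was chosen by its higher level after knockdown in both cell lines, so its own change is given as a description. The other 8 genes were added for their place in the pathway.

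The study measured RNA in HT29 and LIM1215 cells, which are established human colorectal cancer lines. In each line, 1 library came from cells given a negative control siRNA (NC) and 1 from cells given an siRNA against TMEM161A, labelled si2. A single siRNA and a single library per group mean that no value has a replicate error and no test within a line exists. The comparisons below are therefore descriptions of 4 libraries, apart from 1 fit that takes the lines as repeats of each other.

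Phosphatidic acid reaches the inner membrane with the help of PRELID1, where it is activated with CTP to CDP-diacylglycerol. CDS1 and CDS2 catalyse that activation in the endoplasmic reticulum, and TAMM41 does so in mitochondria. PGS1 joins CDP-diacylglycerol to glycerol phosphate, PTPMT1 removes the phosphate to leave phosphatidylglycerol, and CRLS1 joins this product to another CDP-diacylglycerol to give cardiolipin. TAFAZZIN and LCLAT1 then exchange its acyl chains.

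Levels are FPKM, fragments scaled to gene length and library depth, as deposited. Judged by the steps between low values, 1 FPKM was worth about 18.2 to 21.6 fragments per kilobase, depending on the library. The 95% counting intervals below (exact Clopper-Pearson, from estimated fragments) cover counting error only and neither culture variation nor the assignment of fragments shared by genes. The targeted gene TMEM161A was at 42.6 (NC) and 4.64 (si2) in HT29, and at 39.1 (NC) and 7.61 (si2) in LIM1215. Of 8 epithelial markers, 8 were at an FPKM of at least 1 in both LIM1215 libraries and 5 in both HT29 libraries, where VIL1, KRT20 and LGALS4 stayed below 1. Of 8 markers of immune, stromal and endothelial cells, COL1A1 and CD68 alone reached 1 in any library. CD68 ranged from 6.22 (HT29 NC) to 72.2 (LIM1215 si2), and COL1A1 from 4.83 (LIM1215 NC) to 17.6 (HT29 NC). PTPRC and CD3E were listed at 0 in all 4.

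PTPMT1 (ENSG00000110536) lies on the plus strand of chromosome 11, at chr11:47565430-47573461 (GRCh38, GENCODE release 44). The locus is crowded, and the sequences below show where its gene models lie close together or share bases. The start of PTPMT1 at 47565599 and a start of CELF1 at 47565539 on the opposite strand are 60 bases apart in RefSeq. CELF1 had 5 promoter windows there. Its canonical transcript in GENCODE, CELF1-222, starts farther away, at 47553132. The 250 bases before the PTPMT1 start (chr11:47565349-47565598, plus strand, RefSeq promoter table, GRCh38.p14) are printed below. Capitals mark the 109 bases that also lie in the 300-base window of the CELF1 start at 47565539.
PTPMT1 promoter: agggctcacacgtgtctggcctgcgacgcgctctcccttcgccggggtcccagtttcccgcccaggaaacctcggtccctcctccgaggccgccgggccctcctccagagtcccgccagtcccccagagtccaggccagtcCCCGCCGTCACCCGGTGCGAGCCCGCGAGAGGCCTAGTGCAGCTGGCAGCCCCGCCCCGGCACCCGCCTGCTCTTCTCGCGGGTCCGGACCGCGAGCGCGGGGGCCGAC

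Of the 9 genes, 8 had a promoter window in that table, all but TAFAZZIN. On both strands of the 300-base windows, the PTPMT1 window held the E box CACGTG once, as did 7.26% of 35116 windows, and the GC box GGGCGG 2 times, a motif found in 45.0% of windows. It held no CCAAT (34.6% of windows), no ETS core CCGGAA (17.2%) and no ATF4 element TGATGNAA (3.62%). Among the other members, PRELID1 also held CACGTG, CRLS1 held TGATGNAA, and 5 held GGGCGG. These are letter matches, none of the motifs contains another, and no binding was measured.

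The PTPMT1 transcripts share exons with 3 annotated genes, NDUFS3 on the same strand and CELF1 and KBTBD4 on the opposite strand. The 140 bases shared with CELF1 lie outside the canonical PTPMT1 transcript. The canonical transcript, PTPMT1-202, has 2462 bases in 4 exons. Of these bases, 1265 (51.4%) overlap exons of KBTBD4 on the opposite strand and 552 (22.4%) overlap exons of NDUFS3 on the same strand. With both strands taken, 73.8% of its length is shared with another gene model. The libraries were stranded, but the strand setting of the counting is not given in the sources used here. The NDUFS3 overlap comes from NDUFS3-211, a transcript model that starts upstream of PTPMT1, carries PTPMT1 exons and continues into NDUFS3. Splice junctions tell the models apart in part, and are printed with 15 bases on each side of the junction and the downstream exon in capitals (plus strand, GENCODE release 44 transcripts).
PTPMT1-202 exon 2 to 3: tgcaactcttcacagGAGTGGAAGAGACTA
PTPMT1-201 exon 2 to 3: tgcaactcttcacagGTGCACAAATGGAGT
NDUFS3-211 exon 3 to 4: gaaatgtgccaatagCCACTGTCAGACCAC
NDUFS3-201 exon 2 to 3: gggccgacacgcgccCCACTGTCAGACCAC

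The junction of PTPMT1-202 joins bases 47565986 and 47569700 and is held by 3 of the annotated PTPMT1 and NDUFS3 transcripts, all of PTPMT1. The junction of PTPMT1-201 joins 47565986 and 47571471 and is also the exon 2 to 3 junction of NDUFS3-211, so reads across it do not separate the genes. The junction of NDUFS3-211 from 47571743 to 47580525 is held by that model alone. The deposited values are 1 per gene, so the junctions themselves were not measured here.

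**Figure D1:**
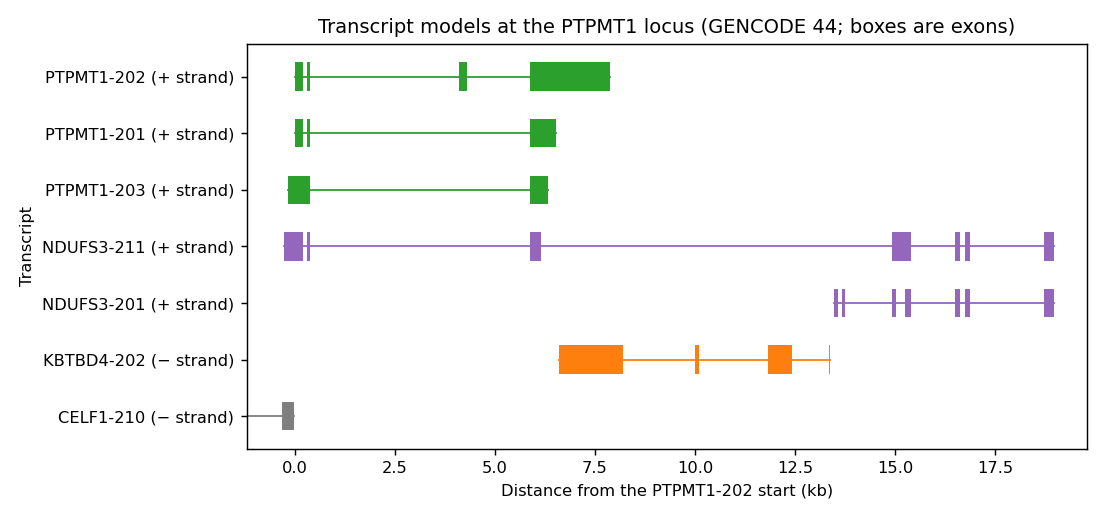
Transcript models at the PTPMT1 locus against the distance from the PTPMT1-202 start in kilobases, with boxes for exons and lines for introns (CELF1-210 continues to the left). The last exon of PTPMT1-202 lies over the last exon of KBTBD4-202, and the first 3 exons of NDUFS3-211 lie over PTPMT1 exons.

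PTPMT1 was higher after TMEM161A siRNA in both lines. In HT29 its FPKM was 12.8 in the NC library and 56.5 in the si2 library. In LIM1215 it was 22.0 in the NC library and 54.6 in the si2 library. Both si2 libraries thus lay above both NC libraries, and the si2 levels of the lines were closer to each other than the NC levels were. In RNA from whole cultures, more RNA per cell and more cells with that RNA cannot be told apart. The HT29 level was 4.41-fold that of control (441%, counting interval 404% to 482%). The LIM1215 level was 2.48-fold that of control (248%, counting interval 230% to 268%). With the length of the short transcript PTPMT1-201 (928 bases) in place of 2462 bases, the intervals were 377% to 517% and 217% to 285%.

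On the scale of log2(FPKM + 1), PTPMT1 had a ratio of si2 over NC of 2.06 (HT29) and 1.27 (LIM1215). Among 12295 protein-coding genes it took place 5 from the top in HT29 and place 27 in LIM1215. Among all 14803 genes that passed the filter on mean FPKM, the places were 55 and 132. A ratio of at least 1 or at most −1 on this scale is called past 2-fold here. PTPMT1 was 1 of 41 genes past 2-fold and higher in both lines, 0.277% of the 14803 genes with a mean FPKM of at least 1. This is the comparison it was chosen from, and nothing is read from that share. All 9 genes passed the filter on mean FPKM.

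**Figure D2:**
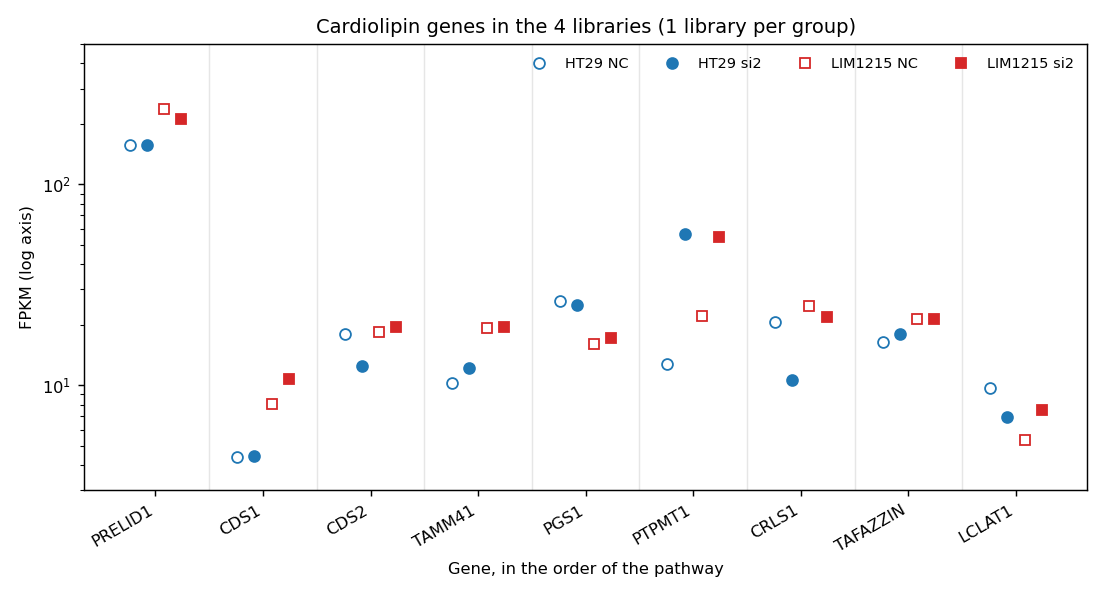
FPKM (log axis) of the 9 cardiolipin genes in pathway order, with 1 point per library, open for NC and filled for si2. The 2 filled PTPMT1 points, at 56.5 and 54.6, lie above both open ones, at 12.8 and 22.0, and PRELID1 is the highest gene in every library.

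The genes that overlap PTPMT1 differed far less between the libraries. NDUFS3, a core subunit of respiratory complex I, had an FPKM of 99.5 (NC) and 95.6 (si2) in HT29 and of 127 (NC) and 129 (si2) in LIM1215. CELF1, an RNA-binding protein that regulates splicing and mRNA decay, had 56.5 and 57.7 in HT29 and 53.7 and 54.8 in LIM1215. KBTBD4, a substrate adaptor of a cullin ubiquitin ligase, had 9.58 and 10.6 in HT29 and 8.64 and 10.4 in LIM1215. The log2 ratios were −0.06 and 0.02 for NDUFS3, 0.03 and 0.03 for CELF1 and 0.13 and 0.24 for KBTBD4, in HT29 and LIM1215 in turn. The HT29 value of CELF1 was below 0 under each of the 3 other scalings, −0.05 at the lowest. In HT29 all 3 counting intervals included no change, and in LIM1215 that of KBTBD4 did not (105% to 139% of control).

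In FPKM, PTPMT1 differed by 43.7 between the HT29 libraries and by 32.6 between the LIM1215 libraries. KBTBD4 differed by 1.04 in HT29 and by 1.78 in LIM1215, values that also depend on how shared fragments were divided. NDUFS3 differed by −3.85 in HT29 and by 2.21 in LIM1215. PTPMT1 and NDUFS3 were also summed, which was decided with their values in view. The sum was 112 (NC) and 152 (si2) in HT29, and 149 (NC) and 184 (si2) in LIM1215. The sum of PTPMT1 and KBTBD4 was 22.4 (NC) and 67.2 (si2) in HT29, and 30.6 (NC) and 65.05 (si2) in LIM1215. Its log2 ratios were 1.54 and 1.06. The sum of PTPMT1, NDUFS3, KBTBD4 and CELF1 had log2 ratios of 0.30 and 0.24. How the counting divided fragments between NDUFS3-211 and PTPMT1, or between strands, is not given in the sources used here, and its part in the PTPMT1 values was not tested.

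Farther out, 15 other protein-coding genes have a span within 250 kb of PTPMT1, the 3 overlapping ones included, and 9 of them passed the filter. None of the 9 was past 2-fold in either line, beside 3.80% of all genes in HT29 and 3.46% in LIM1215. For 9 genes, a count of none is near those shares. Their log2 ratios ran from −0.06 to 0.37 in HT29, with a median of 0.06, and from −0.23 to 0.31 in LIM1215, with a median of 0.03. MADD, a regulator of Rab GTPases, had the highest ratio of the 9 in both lines.

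**Figure D3:**
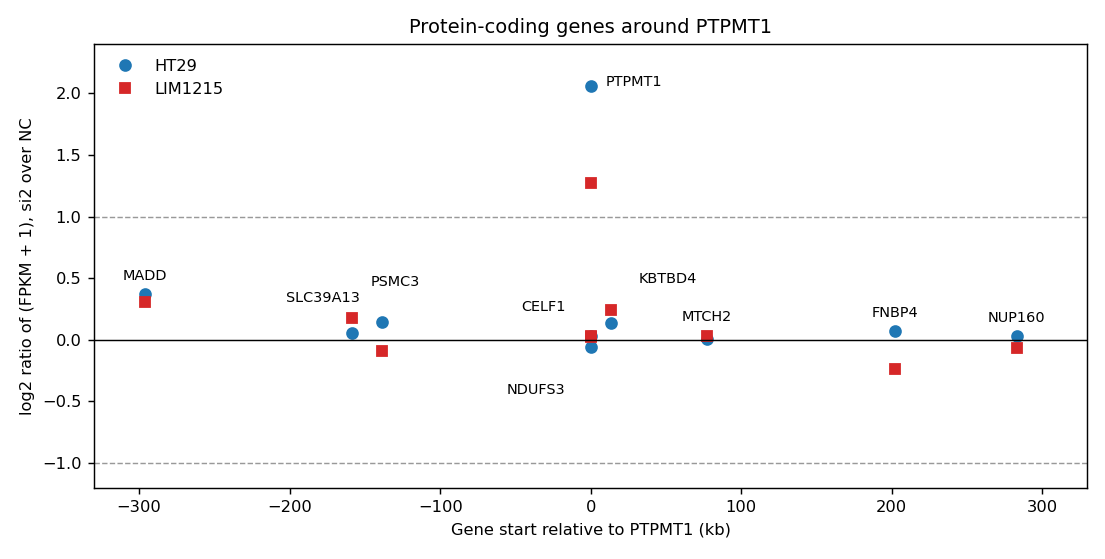
The log2 ratio of FPKM + 1, si2 over NC, of protein-coding genes around PTPMT1 with a mean FPKM of at least 1, against the distance of the gene start from that of PTPMT1 in kilobases. Only PTPMT1 lies above the dashed 2-fold line, at 2.06 in HT29 and 1.27 in LIM1215; the other 9 genes lie between −0.23 and 0.37.

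The other 8 cardiolipin genes did not share the PTPMT1 pattern, and neither did most genes. None was past 2-fold in either line, so the count for the 9 genes was 1, PTPMT1, in each line, beside 3.80% of all genes in HT29 and 3.46% in LIM1215. The median log2 ratio of the 8 was −0.03 in HT29 and 0.05 in LIM1215, against 0.04 and 0.02 for all genes. PTPMT1 stood 2.09 above the median of the 8 in HT29 and 1.22 above it in LIM1215. Because PTPMT1 was chosen for its rise, this gap is a description. Past 1.5-fold, CRLS1 was added in HT29 (2 of 9 genes, beside 14.8% of all genes), and none was added in LIM1215 (1 of 9, beside 12.8%).

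A fit over the 4 libraries with the cell line as a block (limma on log2(FPKM + 1), Benjamini-Hochberg adjustment over 14803 genes) was added after the data were seen. It asks whether the mean log2 ratio of si2 over NC across the 2 lines differs from no change, and leaves 1 residual degree of freedom per gene. It does not test whether the lines responded alike. At an adjusted p under 0.05 it called 288 genes, 1.95% of those tested, 127 higher and 161 lower. None of the 8 other cardiolipin genes passed. Of the 8, 1 gene, CRLS1, had an unadjusted p under 0.05, as did 2882 of all 14803 genes. CRLS1 had a mean log2 ratio over the lines of −0.53 ± 0.19 (SE) and an adjusted p of 0.205 in this limma fit, and was lower in both lines. The SE and p values use a variance drawn mostly from other genes (6.06 prior against 1 residual degree of freedom). They therefore do not measure how well the 2 lines agreed for CRLS1. A p above the threshold does not show that these genes were level. PTPMT1 was chosen on this contrast and is given no test.

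CRLS1, the cardiolipin synthase that uses the product of PTPMT1, differed in the opposite direction. Its FPKM was 20.6 (NC) and 10.6 (si2) in HT29 and 24.7 (NC) and 21.9 (si2) in LIM1215. The lowest of the 4 values was thus in the HT29 si2 library, at 51.6% of control (counting interval 47.4% to 56.1%, log2 ratio −0.89). In LIM1215 the level was 88.8% of control (82.9% to 95.1%, log2 ratio −0.16). The ratio of PTPMT1 to CRLS1 FPKM within a library was 0.622 in the HT29 NC, 5.32 in the HT29 si2, 0.891 in the LIM1215 NC and 2.49 in the LIM1215 si2 library. Of the 3925 bases of the canonical CRLS1 transcript, 84.0% also lie in a same-strand gene model with no symbol that is not among the deposited identifiers.

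The step before PTPMT1 was nearly level. PGS1, which makes phosphatidylglycerol phosphate, had an FPKM of 26.2 (NC) and 25.1 (si2) in HT29 and of 16.0 (NC) and 17.1 (si2) in LIM1215. Both of its counting intervals included no change, at 88.1% to 104% and 95.8% to 119% of control. PGS1 differed more between the lines than between the siRNAs.

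Among the CDP-diacylglycerol synthases, TAMM41 had an FPKM of 10.3 (NC) and 12.2 (si2) in HT29 and of 19.2 (NC) and 19.5 (si2) in LIM1215. Its log2 ratios were 0.23 and 0.02, the second of which became −0.00409 when the ratios were centred on the median of all genes. CDS2 was at 17.9 (NC) and 12.4 (si2) in HT29, 69.2% of control (65.7% to 73.0%), and at 18.3 (NC) and 19.5 (si2) in LIM1215, 106% of control (101% to 112%). CDS1 was at 4.40 (NC) and 4.45 (si2) in HT29, 101% of control (87.7% to 117%), and at 8.04 (NC) and 10.7 (si2) in LIM1215, 133% of control (120% to 148%). In log2 ratios, CDS1 had 0.01 and 0.38 and CDS2 −0.50 and 0.08. The HT29 ratio of CDS1 was below 0 under each of the 3 other scalings, −0.05 at the lowest.

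PRELID1, the phosphatidic acid carrier, was the most abundant of the 9 genes in every library. Its FPKM was 158 (NC) and 157 (si2) in HT29 and 237 (NC) and 210.5 (si2) in LIM1215. The LIM1215 level was 88.7% of control (85.0% to 92.5%), and the HT29 level was 99.8% (95.2% to 105%). Of the canonical PRELID1 transcript, 58.8% overlaps exons of MXD3 on the opposite strand, a gene with an FPKM of 6.40 to 15.1.

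Of the remodelling enzymes, TAFAZZIN, a transacylase whose loss causes Barth syndrome, had an FPKM of 16.4 (NC) and 17.9 (si2) in HT29 and of 21.5 (NC) and 21.3 (si2) in LIM1215. Both counting intervals included no change. LCLAT1, an acyltransferase for lysocardiolipin, went in opposite directions in the lines. It was at 9.68 (NC) and 6.97 (si2) in HT29, 72.0% of control (65.2% to 79.4%), and at 5.32 (NC) and 7.53 (si2) in LIM1215, 142% of control (126% to 160%). The 2 si2 libraries thus lay between the 2 NC libraries.

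**Figure D4:**
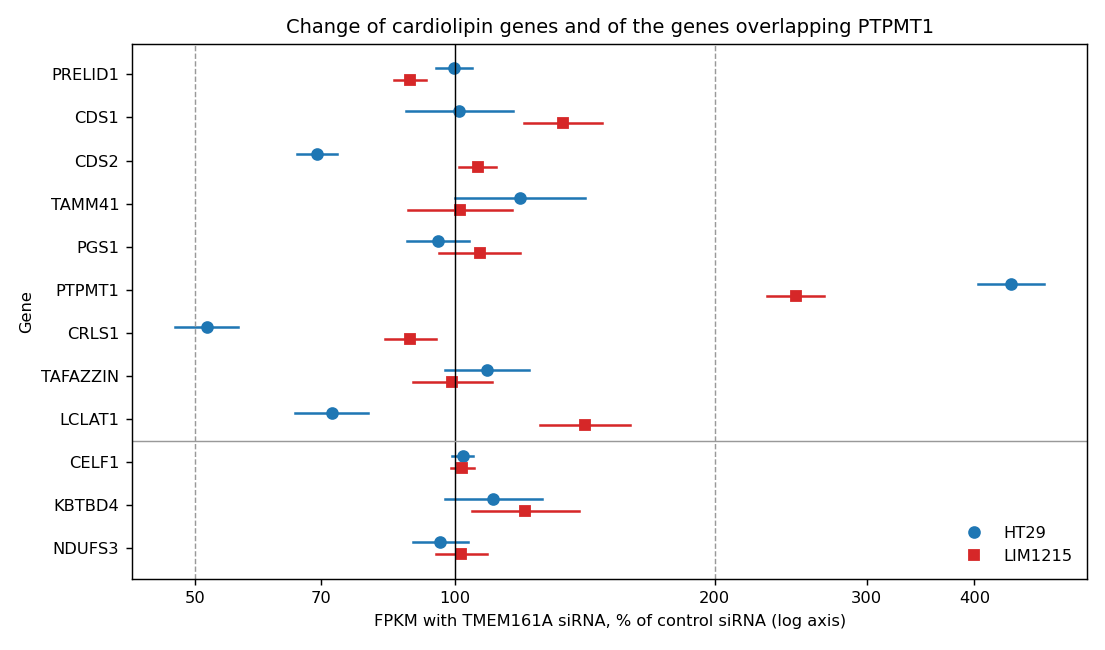
FPKM with TMEM161A siRNA as a percentage of control siRNA (log axis) for the 9 cardiolipin genes and, below the grey line, the 3 genes that overlap PTPMT1, with bars for the 95% counting interval. PTPMT1 is the only gene past the dashed 2-fold lines, at 441% in HT29 and 248% in LIM1215; CRLS1 in HT29 is at 51.6%.

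In the order of the genes by FPKM, PTPMT1 was the 6th of 9 in the HT29 NC library, behind PRELID1, PGS1, CRLS1, CDS2 and TAFAZZIN, and the 3rd in the LIM1215 NC library, behind PRELID1 and CRLS1. In both si2 libraries it was the 2nd, behind PRELID1. CRLS1 was the 3rd in the HT29 NC and the 7th in the HT29 si2 library, and was the 2nd and the 3rd in LIM1215. CDS1 and LCLAT1 held the last places in all 4 libraries, CDS1 the lowest in HT29 and LCLAT1 the lowest in LIM1215.

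Between the control libraries, none of the 9 genes was past 2-fold, beside 19.4% of all genes. Past 1.5-fold there were 6 of 9, beside 38.0% of all genes. PTPMT1, TAMM41, CDS1 and PRELID1 were higher in LIM1215, with log2 ratios of LIM1215 over HT29 of 0.73, 0.84, 0.74 and 0.59, and PGS1 (−0.68) and LCLAT1 (−0.76) were lower. The median log2 ratio of all genes in this comparison was 0.05, and −0.11 after scaling all libraries to the same FPKM sum.

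Other genes of mitochondrial and phospholipid metabolism were compared by list. Of all genes, 3.80% were past 2-fold in HT29 and 3.46% in LIM1215. A count of none in lists this short is near those shares, and nothing is read from it. Of 12 genes for cardiolipin transfer, scaffolding and breakdown, none was past 2-fold in either line, and the medians were −0.03 (HT29) and 0.11 (LIM1215). STOML2, a cardiolipin-binding scaffold, had −0.03 and −0.22. HADHA, the alpha subunit of the trifunctional protein, which can also acylate monolysocardiolipin, had 0.26 and 0.38. PRELID3B, a relative of PRELID1, had −0.33 and −0.28. TRIAP1, the partner of PRELID1 in phosphatidic acid transfer, was named after its values were seen and had 0.01 and 0.59.

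Of 13 genes that supply phosphatidic acid, none was past 2-fold on the log2(FPKM + 1) scale, and the medians were 0.07 and −0.06. GPAT4 and AGPAT2, acyltransferases of the first and second acylation step, had 0.13 and 0.16, and −0.22 and −0.18. DGKA, a diacylglycerol kinase, had 0.56 and 0.33. AGPAT4 and GPAT2, acyltransferases named after their values were seen, were over 2-fold in FPKM itself in 1 line each. AGPAT4 was at 3.60 (NC) and 7.97 (si2) in HT29, 222% of control (counting interval 201% to 245%), a log2 ratio of 0.96, and had 0.25 in LIM1215. GPAT2 was at 0.317 (NC) and 0.896 (si2) in LIM1215, 282% of control on few fragments (155% to 544%), a log2 ratio of 0.53, and had 0.76 in HT29.

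Of 13 genes for other phospholipids, none was past 2-fold either, with medians of 0.13 and −0.12. PTDSS1, a phosphatidylserine synthase, had −0.42 and −0.19, CDIPT, the phosphatidylinositol synthase, had 0.28 and 0.24, and PCYT1A, which makes CDP-choline, had 0.42 and −0.17. The 6 other mitochondrial phosphatases had medians of −0.02 and −0.11 and no member past 2-fold. PDP1, a pyruvate dehydrogenase phosphatase, had −0.06 and −0.19, PGAM5 had 0.01 and −0.04, and PDP2 had 0.12 and 0.56. These lists, the cardiolipin genes and the 3 overlapping neighbours held 56 genes in all. Of these, PTPMT1, which was chosen for its rise, was the single gene past 2-fold with a pseudocount of 1. Of all genes, 3.80% (HT29) and 3.46% (LIM1215) were past 2-fold at that pseudocount. With 0.1, AGPAT4 (HT29, 1.13) and GPAT2 (LIM1215, 1.25) passed too. In the limma fit, none of the 44 list genes passed an adjusted p of 0.05, beside 1.95% of all genes. An unadjusted p under 0.05 was found for 10 of the 44, beside 2882 of all 14803 genes, and nothing is read from that count. The smallest adjusted p among the 44 was 0.117, for DGKA, which was higher in both lines by a mean log2 ratio of 0.45.

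**Figure D5:**
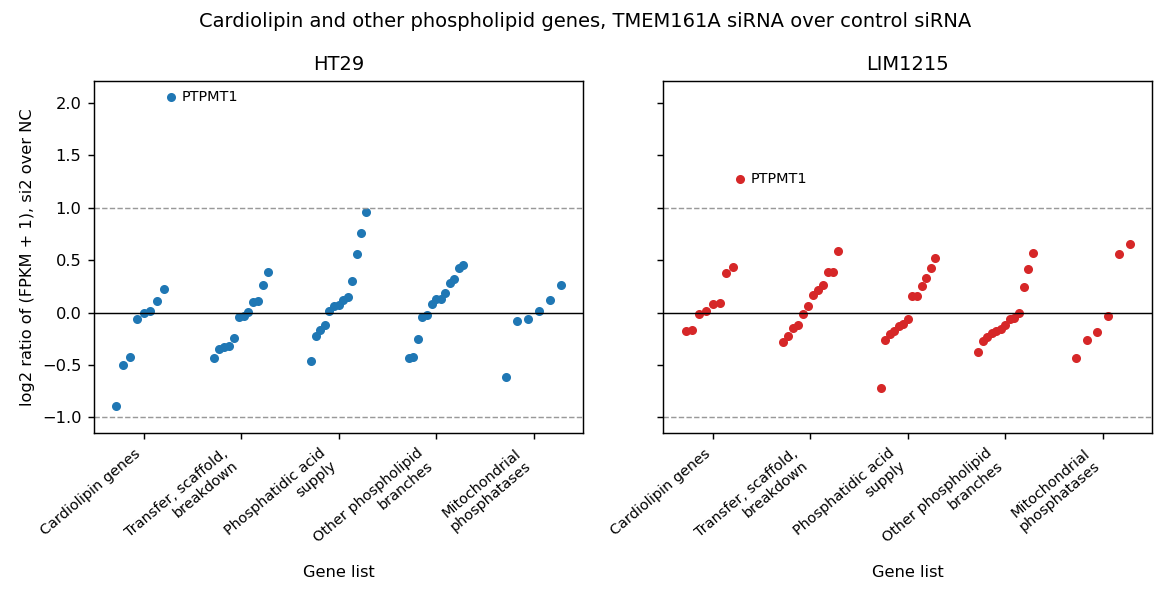
The log2 ratio of FPKM + 1, si2 over NC, in HT29 (left) and LIM1215 (right), with 1 point per gene, sorted within each list, and dashed lines at 2-fold. On this scale PTPMT1 is the only point past 2-fold in either line; the nearest other points are AGPAT4 at 0.96 and CRLS1 at −0.89, both in HT29.

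To place the PTPMT1 pattern among all genes, the distance between profiles was computed over the 4 libraries, as the Euclidean distance of log2(FPKM + 1) after removal of the mean of each gene. Among 12202 other protein-coding genes, the nearest were WDR1 (0.395), an actin-disassembly factor, BTG2 (0.622), an antiproliferative gene, PDCD6 (0.633), a calcium-binding protein, BANF1 (0.653), a chromatin protein of the nuclear envelope, and SEMA3C (0.672), a secreted semaphorin. WDR1 had an FPKM of 96.4 (NC) and 277 (si2) in HT29 and of 126 (NC) and 329 (si2) in LIM1215. The other 8 cardiolipin genes were at distances of 1.62 (TAMM41) to 2.34 (CRLS1), which put them at places 2986 to 10515 in the order of likeness. With 4 libraries these distances describe the values and carry no test.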

How the data were processed

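RNA sequencing tables of 4 libraries, 1 per group, were used. The authors deposited FPKM per Ensembl gene, per the file headers. The submitters' processing notes name HISAT2 2.1.0, SAMtools 1.20, Cuffdiff, Cufflinks 2.2.1 and the build GRCh38. The annotation, filters and strand setting are not given in the sources used here. Libraries were stranded and poly(A)-selected, per the labels' protocols.

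Symbols, spans and exons came from GENCODE release 44 (GRCh38) for 56550 identifiers, and may differ from the authors' annotation. Log2 ratios used a pseudocount of 1 over the 14803 genes with a mean FPKM of at least 1, and understate changes of low genes. Fragments were estimated from the depth and length offset (204 bases) that put most low values of single-transcript genes of at least 500 bases within 0.03 of a whole number (75.2% to 77.4%, against 6% without steps), with canonical lengths. The scripts (Python 3.11.15) were tested on simulated data. Named genes were the 9 members, the 3 overlapping neighbours, list genes past 2-fold plus the 3 most abundant per list, and the 5 nearest profiles. Members and lists were chosen with earlier results of these data known. Alternatives were other pseudocounts, filters, scalings and a 1.5-fold threshold, and a limma fit (3.58.1, R 4.3.3) with the line as a block and a trended prior.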

Additional observations from a re-analysis of the deposited data

Results flagged for a closer look

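The 9 cardiolipin genes, the 3 neighbours that overlap PTPMT1 and the 44 list genes were screened for log2 ratios of si2 over NC with opposite signs in the 2 lines. With 1 library per group, none of these differences was tested. No share of all genes with opposite signs is given beside them, and ratios close to no change can take either sign. The difference, LIM1215 minus HT29, was 0.86 for LCLAT1 (−0.42 in HT29 and 0.43 in LIM1215) and 0.58 for CDS2 (−0.50 and 0.08). It was −0.59 for PCYT1A (0.42 and −0.17). PGS1 (0.15), TAFAZZIN (−0.12), NDUFS3 (0.0810) and PGAM5 (−0.0499) had small differences. Among the genes for cardiolipin transfer, scaffolding and breakdown, the difference was 0.56 for DNAJC19 (−0.35 and 0.22), 0.50 for PLA2G6, 0.38 for PNPLA8 and −0.13 for PLD6. Among those that supply phosphatidic acid, it was −0.73 for GPAT3, −0.41 for DGKZ and −0.28 for AGK. Among those for other phospholipids, it was −0.84 for PTDSS2 (0.46 and −0.38), 0.82 for LPIN1 (−0.26 and 0.56), 0.44 for LPIN3, −0.41 for SELENOI, −0.37 for PISD, −0.35 for CEPT1 and −0.20 for PEMT.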

How the results depend on the processing

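No test within a line was possible and no library could be left out, because each group has 1. A fit with the cell line as a block, which pairs the si2 and NC libraries of each line, called 288 genes. It was added after the data were seen. With a pseudocount of 0.1, 2 of the 56 genes examined were past 2-fold in each line, against 1 with 1 or 5. With a pseudocount of 5, PTPMT1 had log2 ratios of 1.79 (HT29) and 1.14 (LIM1215) and stood 1.82 and 1.10 above the median of the other 8 genes. With the FPKM of PTPMT1 and NDUFS3 summed, an alternative added after the data were seen, the log2 ratios were 0.43 and 0.30, below 2-fold. This sum holds the large, nearly level NDUFS3 value by construction. With PTPMT1 and KBTBD4 summed instead, the log2 ratios were 1.54 and 1.06, past 2-fold. At 1.5-fold, 2 genes passed in HT29 and 6 between the control libraries. PTPMT1 kept its sign and its 2-fold call as a gene of its own under every pseudocount, filter and scaling tried, with a range of 1.79 to 2.13 (HT29) and 1.14 to 1.31 (LIM1215). Signs changed for TAMM41 in LIM1215 and for CDS1 and CELF1 in HT29, all near 0. Counts of all genes past 2-fold went from 274 higher and 288 lower in HT29 and 249 and 263 in LIM1215 to 87, 94, 68 and 88 with a pseudocount of 5, 570, 558, 476 and 508 with 0.1, 128, 144, 89 and 113 at a mean FPKM of at least 5, and 118, 155, 93 and 109 among protein-coding genes. At 1.5-fold they were 1165, 1023, 982 and 915. Without a filter they were 396, 406, 395 and 375. With the FPKM rescaled to a common sum they were 244, 364, 239 and 256.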
